A study of Mus musculus with 4 samples.

Results

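The 10 chemokine genes described here are Ccl2, Ccl20, Ccl27a, Cxcl1, Cxcl2, Cxcl5, Cxcl10, Cxcl12, Cxcl14 and Cxcl16, out of 32285 genes measured by single-cell RNA sequencing of adult mouse back-skin epidermis. They were taken from a named list, drawn up with earlier results of these data known, and each was followed through keratinocyte, immune and stromal cells. The study compared DNp63fl/fl control mice, in which loxP sites flank the ΔN form of the transcription factor p63 without being cut, with experimental DNp63fl/fl;K14-CreT2 mice, called ablated below. In the latter a tamoxifen-dependent Cre recombinase is under the K14 (keratin 14) promoter, whose activity marks the basal layer. Both genotypes received 200 mg/kg tamoxifen by oral gavage every day for 5 days, and cells were taken 1 day or 1 week after ablation. Mice of both sexes, aged 2 to 17 months, were used, and 0.25% trypsin at 4 or 37 °C separated the epidermis. Which ages, sexes and digestion temperature belong to each library is not given in the labels, nor is the number of mice pooled.

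Chemokines are small secreted proteins that steer leukocytes along concentration gradients by binding G protein-coupled receptors. Keratinocytes make some of them all the time to keep resident immune cells in place, and make others within hours of injury, cytokine exposure or microbial sensing. In skin, Cxcl1, Cxcl2 and Cxcl5 draw neutrophils through Cxcr2, Ccl2 draws monocytes through Ccr2, Ccl20 draws Ccr6-bearing T cells and dendritic cell precursors, Ccl27a draws skin-homing T cells through Ccr10, and Cxcl10 is an interferon-induced ligand of Cxcr3. Cxcl12 binds Cxcr4, Cxcl14 is a constitutive epithelial chemokine, and Cxcl16 is made as a membrane-bound ligand of Cxcr6 that proteases of the Adam family shed.

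The upstream windows of Cxcl1, Cxcl2, Cxcl10 and Ccl20 are shown because these were among the members whose UMIs were concentrated in few cells, as described below. Each runs 5′ to 3′ in the direction of its gene up to the gene's start, from RefSeq on GRCm38.p6. Capitals mark letters matching a κB-type motif (GGG, any 3 bases, TTCC), an interferon-response motif (GAAA, any 2 bases, GAAA) or an AP-1 motif (TGANTCA, where N is any base), on either strand.
Cxcl1, chr5:90891025-90891240, plus strand: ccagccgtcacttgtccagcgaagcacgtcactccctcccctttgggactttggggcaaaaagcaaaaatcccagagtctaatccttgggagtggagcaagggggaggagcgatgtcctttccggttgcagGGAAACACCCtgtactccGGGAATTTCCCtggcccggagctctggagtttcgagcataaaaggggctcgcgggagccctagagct
Cxcl2, chr5:90903679-90903870, plus strand: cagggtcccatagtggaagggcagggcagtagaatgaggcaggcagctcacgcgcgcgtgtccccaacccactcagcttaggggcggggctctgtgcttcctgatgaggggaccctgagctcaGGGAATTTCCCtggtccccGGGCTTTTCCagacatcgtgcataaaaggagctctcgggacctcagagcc
Cxcl10, chr5:92348890-92349109, minus strand: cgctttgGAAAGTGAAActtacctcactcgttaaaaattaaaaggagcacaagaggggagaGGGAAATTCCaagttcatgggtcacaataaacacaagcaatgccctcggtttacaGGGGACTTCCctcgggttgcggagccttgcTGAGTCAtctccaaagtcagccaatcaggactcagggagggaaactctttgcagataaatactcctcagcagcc
Ccl20, chr1:83116546-83116765, plus strand: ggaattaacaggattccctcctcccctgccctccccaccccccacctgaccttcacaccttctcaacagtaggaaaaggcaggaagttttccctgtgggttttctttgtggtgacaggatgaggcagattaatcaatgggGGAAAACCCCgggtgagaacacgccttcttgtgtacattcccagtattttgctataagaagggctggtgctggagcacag
Within the 250 bases before each start, Cxcl1 and Cxcl2 each held 3 matches to the κB-type motif, of which 2 overlap on opposite strands, while Cxcl10 held 2 such matches, 1 interferon-response match and 1 AP-1 match, and Ccl20 held 1 κB-type match. Among 32851 RefSeq promoter windows of that length, 4.65% held the κB-type, 2.98% the interferon-response and 6.75% the AP-1 letters. Of the other members with a window, Cxcl14 held 1 interferon-response match, Ccl27a held 1 AP-1 match in 1 of its 3 listed starts, and Cxcl12 held none of the 3 motifs. RefSeq windows were matched for 7 of the 10 members, all except Ccl2, Cxcl5 and Cxcl16. A match describes letters in a window and says nothing about binding.

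The genes lie in a few groups on GRCm38 in the GENCODE annotation. Cxcl5 (chr5:90759360-90761624), Cxcl1 (chr5:90891241-90893115) and Cxcl2 (chr5:90903871-90905938) lie on the plus strand of chromosome 5. Cxcl1 and Cxcl2 stand 10.8 kb apart, Cxcl5 ends 129.6 kb before Cxcl1 with Cxcl3 between them, and Cxcl10 (chr5:92346638-92348889, minus) lies on the same chromosome. Ccl2 (chr11:82035571-82037453, plus) stands 8.3 kb before Ccl7, and Cxcl16 (chr11:70453983-70459984, minus) is on the same chromosome. Ccl20 is at chr1:83116766-83119167 (plus), Ccl27a at chr4:41769467-41774247 (minus), Cxcl12 at chr6:117168535-117181367 (plus) and Cxcl14 at chr13:56288643-56296551 (minus). Ccl27a has a near copy, Ccl27b, which held 0 to 2 UMIs a library, and its end overlaps Il11ra1 on the other strand. The symbol Ccl27a stands on 3 entries of the matrices, whose UMIs were summed. The position given belongs to a single entry.

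Values are UMI counts, in which each captured RNA molecule is counted once, summed over the cells of a class and given as CPM, which scales them to the total UMIs of that class. Each group is 1 library, so no difference could be tested against replicates. The 95% intervals given are exact and cover counting error only. The libraries held 68191870 to 179736563 UMIs over 18413 to 33552 barcodes, and 15626 to 23651 cells a library remained after filtering. Counts of the targeted gene, Trp63, do not separate the ΔN from the longer form. Summed over all cells, Trp63 stood at 395 CPM in the control against 114 CPM in the ablated library at 1 day. For the 1-week libraries these levels were 425 CPM without and 141 CPM with ablation. The difference was not the same in every class, as given below. A 3′ kit (v3.1) was used at 1 day and a 5′ kit (v1.1) at 1 week, so each ablated library was set only against the control of its own time point. The control and ablated libraries shared 299 barcodes at 1 day and 661 at 1 week.

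Which keratinocytes were sampled differed between the libraries, and this stands beside every keratinocyte value below. Clusters were called basal-like, suprabasal-like and so on from marker genes. Basal-like cells made up 23.9% of keratinocytes in the 1-day control against 2.52% with ablation, and 27.3% against 0.652% at 1 week. Suprabasal-like cells came from different clusters at 1 day, mainly cluster 3 in the control and clusters 5 (led by Slpi, Fabp7 and Elf3) and 8 (led by Krt6b and Sprr2 genes) in the ablated library, and numbered 2613 and 6 cells at 1 week. At 1 week, hair follicle-like cells were 29.5% of control and 57.0% of ablated keratinocytes, and granular-like cells 2.96% and 18.7%. Clusters called Krt8-led were named by Krt8 or other Merkel cell markers among their leading genes. They held cells of the ablated libraries only (4863 at 1 day, 673 at 1 week) and were kept apart. Krt8 was also counted in 1-day clusters kept as keratinocytes, at 416 CPM in the cycling-like cluster 10, which had 877 control and 977 ablated cells. It stood at 416.5 CPM in cluster 5 (4 control and 3087 ablated cells) and 406.9 CPM in cluster 6 (127 and 2349). In cluster 8 (28 and 2420 cells) it stood at 208.2 CPM. Trp63 was at 40.05 CPM in cluster 5 and 39.27 CPM in cluster 8, below the 55.01 CPM of the 1-day Krt8-led cluster. Its difference was smaller in hair follicle-like cells than over all cells. Follicle cells of the 1-day control held 390.5 CPM against 254.5 CPM with ablation, a log2 ratio of -0.62 (all cells -1.80). Their 1-week level was 462.6 CPM without ablation and 255.6 CPM with it, a ratio of -0.86 (all cells -1.59). Basal-like cells had a Trp63 ratio of -0.95 at 1 day, and of -1.61 at 1 week with 21 ablated cells. At 1 week, 57.4% of control and 71.2% of ablated cells fell in clusters of low UMI count that were given no cell type name. In such clusters at least 50% of cells had a profile close to the free RNA of their library. This limit was applied at 1 week only. At 1 day, keratinocyte clusters 4, 6, 13 and 14 (63.5%, 77.1%, 62.2% and 69.9%) and T cell-like cluster 21 (62.0%) also reached it and kept their names. Clusters 4 and 13 were hair follicle-like.

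Most of the 10 genes showed 1 of 2 patterns of expression within the tissue. Ccl27a, Cxcl14 and Cxcl16 were found in many keratinocytes. In unthinned data from the 1-day control library, 68.2% of keratinocytes held a Ccl27a UMI, 75.0% a Cxcl14 UMI and 61.8% a Cxcl16 UMI, at a median of 4316 UMIs a cell. Ccl2, Ccl20, Cxcl1, Cxcl2 and Cxcl10 were instead concentrated in few cells. In the 1-day control, the 1% of cells richest in each gene held 82.9% of all Ccl2 UMIs, 87.9% of Ccl20, 69.3% of Cxcl1, 94.9% of Cxcl2 and 96.7% of Cxcl10 UMIs, against 9.83% for Ccl27a, 10.4% for Cxcl14 and 8.03% for Cxcl16. Cxcl12 lay between, at 28.8%, and Cxcl5, with 1 UMI in that library, was not placed. The same division was seen in the other 3 libraries. This share also depends on how many cells held the gene at all. In the 1-day control the 1% was 223 cells, and 263 cells held Cxcl2 and 265 held Cxcl10, against 14297 for Ccl27a. In the 1-week control it was 199 cells, and 166 held Ccl20 and 174 held Cxcl2, so that their share of 100% was fixed. The part of low counts in the division was not tested.

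**Figure D1:**
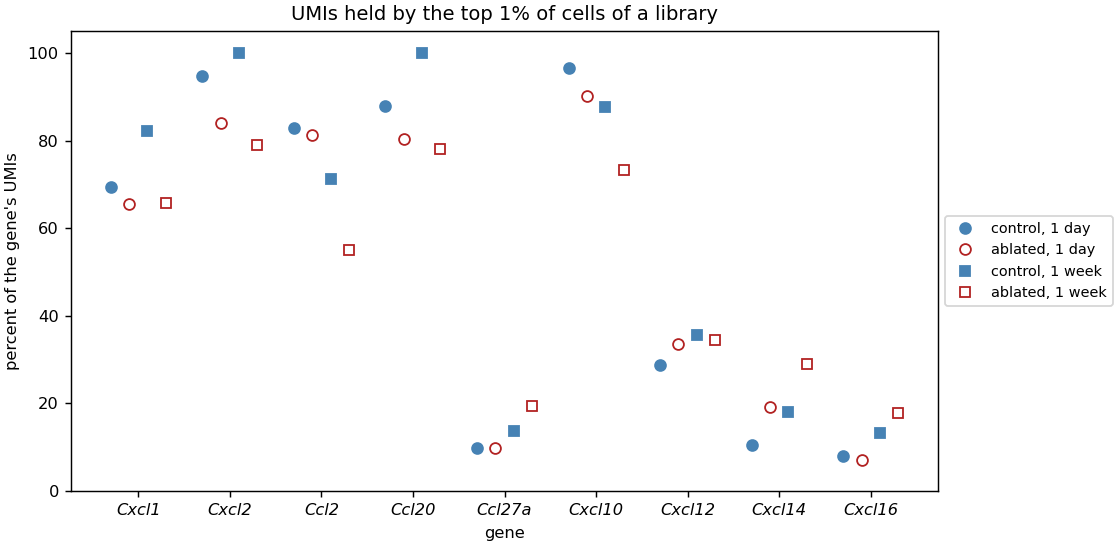
Percent of a gene's UMIs held by the 1% of cells with most of them, for 9 members (x axis) in the 4 libraries; Cxcl5, with 1 to 101 UMIs a library, is left out. Ccl27a, Cxcl14 and Cxcl16 reach at most 28.9% in any library, and Ccl2, Ccl20, Cxcl1, Cxcl2 and Cxcl10 are at 55.0% or more. In the 1-week control fewer cells held Ccl20 or Cxcl2 than make up the 1%, so both are at 100%.

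The broad genes were also counted in T cells, which give the background for shares of cells. T cells, not a known source of Ccl27a, held it in 11.99% of control and 33.5% of ablated cells at 1 day after every cell was thinned to 1000 UMIs (median depths before thinning 1242 and 2869 UMIs), and in 1.46% and 0.885% at 1 week (1975 and 1875 UMIs). The thinned shares in keratinocytes were 38.6% and 34.1% at 1 day (4316 and 3340 UMIs) and 43.3% and 26.5% at 1 week (6108 and 5240 UMIs). In the 1-day ablated library, T cells also held Cxcl14 in 22.6% and Cxcl16 in 24.1% of cells against 28.97% and 27.2% of keratinocytes. Shares of these genes in its immune and stromal cells are therefore read as background. Cxcl16 in Langerhans-like cells is left out of this reading, because its level there was above that of keratinocytes, as given below. Whether these counts came from free RNA, doublets or mixed clusters was not tested. For the sparse genes the T cell shares rest on 0 to 8 positive cells a library. At 1 day Cxcl1 was found in 0.358% of control T cells (0.0434 to 1.29) and 0.761% of ablated ones (0.157 to 2.21), against 0.743% and 0.978% of keratinocytes. Cxcl10 was found in 0.716% and 0.761% of T cells, above its 0.454% and 0.659% in keratinocytes. The 1-day shares of Cxcl1 and Cxcl10 in keratinocytes are therefore not separated from background at this number of T cells. For Ccl2 and Ccl20 no T cell share is set beside the keratinocytes here.

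**Figure D2:**
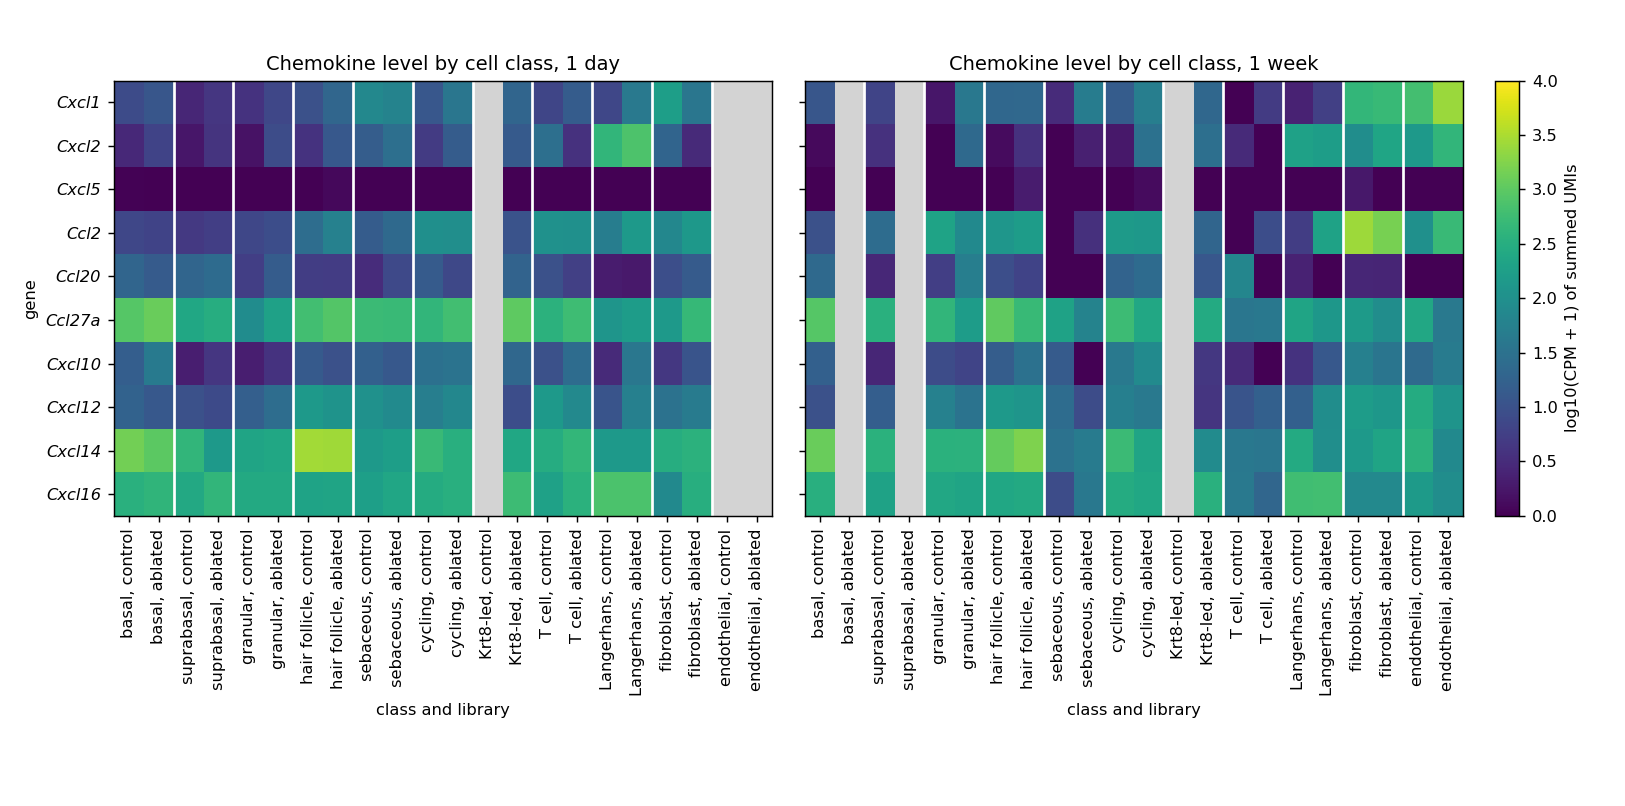
Level of each member (rows) in each class and library (columns) as log10(CPM + 1) of summed UMIs, at 1 day (left) and 1 week (right); grey marks fewer than 50 cells. Ccl27a and Cxcl14 are bright across keratinocyte classes, Cxcl16 is brightest in Langerhans-like cells, and at 1 week Ccl2 is brightest in fibroblast-like and Cxcl1 in endothelial-like cells.

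At 1 day, keratinocytes held 96.2% of Ccl2 UMIs in the control against 87.0% in the ablated library. Of the UMIs of all genes they held 107829194 of 111367116 and 75659972 of 98030852, with the Krt8-led cells kept apart. At 1 week they held 55911026 of 71992061 and 26133792 of 58319906. At 1 week the stroma had a large part: stromal cells held 40.8% and 15.5% of Ccl2 UMIs, 59.5% and 47.9% of Cxcl1 UMIs and 44.4% and 30.2% of Cxcl2 UMIs in the control and ablated libraries. Immune cells held the largest share of Cxcl2 at 1 day, 59.7% of its UMIs in the control against 49.8% in the ablated library, and 424 of 463 and 873 of 877 of these UMIs were in Langerhans-like cells. The Krt8-led cells of the 1-day ablated library, 4863 of its 23651 cells, held 31.9% of its Ccl27a, 28.2% of its Cxcl10 and 26.2% of its Cxcl16 UMIs, but 3.67% of its Ccl2 and 3.27% of its Cxcl12.

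**Figure D3:**
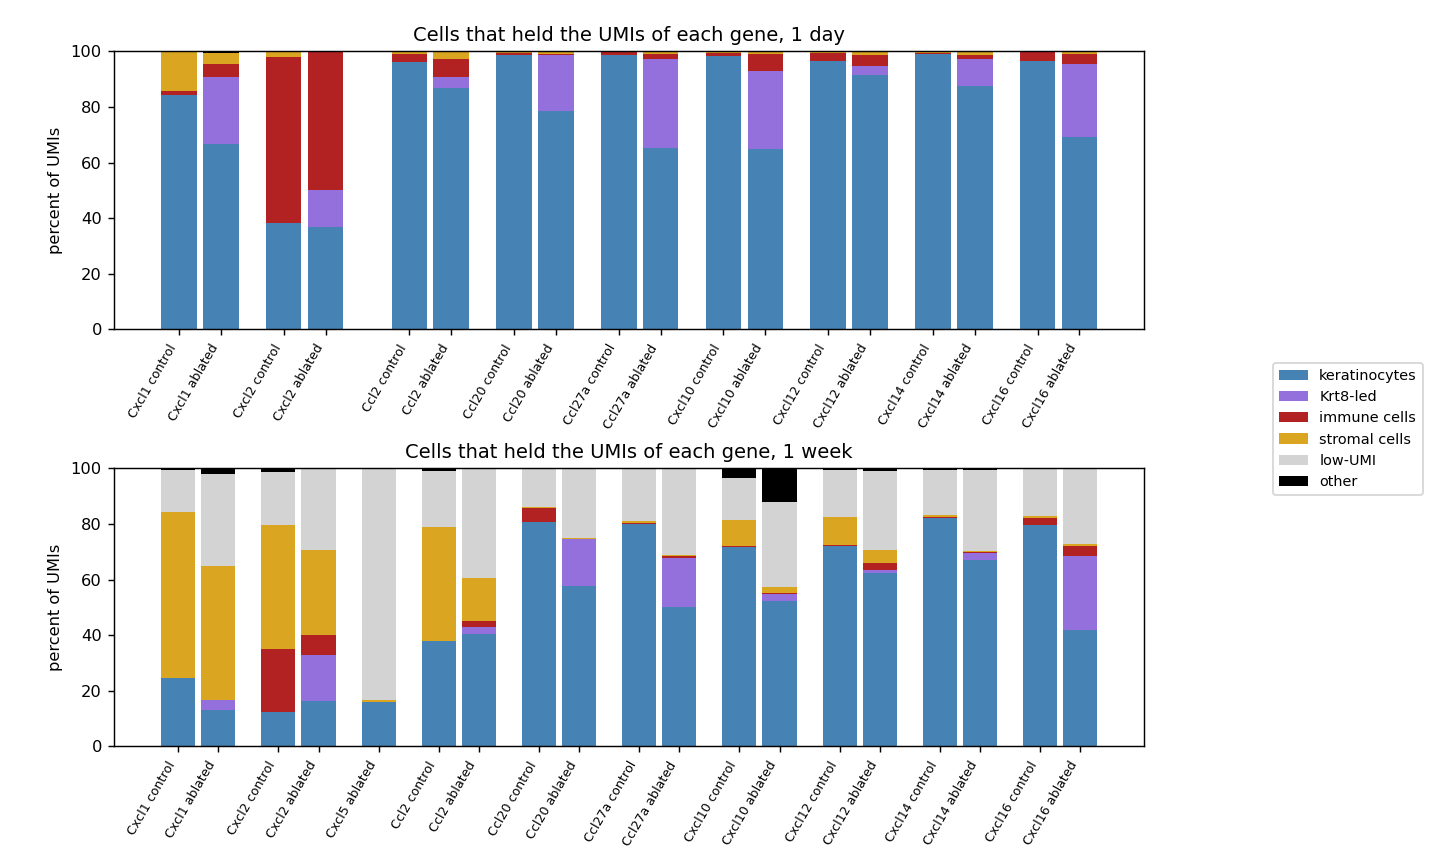
Percent of each gene's UMIs (y axis) held by keratinocytes, Krt8-led cells, immune cells, stromal cells, low-UMI clusters and others, for each gene and library with at least 50 UMIs of it, at 1 day (top) and 1 week (bottom). Keratinocytes held 84.5% of Cxcl1 in the 1-day control and 24.7% in the 1-week control, where stromal cells held 59.5%.

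Summed over keratinocytes at 1 day, 1 of the 9 members with at least 50 UMIs, Cxcl2, was at least 2-fold higher in the ablated library, where 6.31% of 13386 genes were, and none was 2-fold lower, where 2.26% of genes were. The median log2 ratio of the members was -0.01, and that of all genes tested was 0.01. At 1 week, 4 of 9 members (Ccl2, Cxcl1, Cxcl2 and Cxcl10) were at least 2-fold higher, where 11.6% of 13074 genes were, and none was 2-fold lower, where 4.78% of genes were. The members' median log2 ratio was 0.83 and that of all genes 0.18. In the clusters that both libraries filled with at least 50 cells (15 clusters at 1 day, 6 at 1 week), the members at least 2-fold higher numbered 2 at 1 day (Cxcl1 and Cxcl2) and 2 at 1 week (Cxcl2 and Cxcl10), and Ccl27a was more than 2-fold lower at 1 week. In those clusters 7.78% of all genes were higher and 1.33% lower at 1 day, and 4.67% and 3.39% at 1 week. These ratios sum UMIs over the shared clusters, whose mix of cells still differed between the libraries. At 1 day cluster 0 had 4896 control and 443 ablated cells, and cluster 6 had 127 and 2349. Ratios given below as within shared clusters are such sums and not ratios inside single clusters. Under TMM scaling of the 1-week libraries the median of all genes moved from 0.18 to -0.016, and 1078 genes were higher and 829 lower, against 1513 and 625 without it. With that scaling 1 member was higher and none lower at 1 day, where 5.74% and 2.55% of genes were, and 4 were higher and 1 lower at 1 week, where 8.25% and 6.34% were. By the mean of CPM per cell 1 member was higher at 1 day, where 6.96% of genes were, and 2 at 1 week (Cxcl1 and Cxcl2), where 10.3% were, with none lower at either time (2.36% and 4.65% of genes). Split by the 3 antibody hashtags of the 1-day libraries, 2 of 9 members (Cxcl2 and Cxcl14) had keratinocyte ranges that did not overlap between control and ablation, where 36.4% of 12383 genes did not, so the members' share was below the background.

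**Figure D4:**
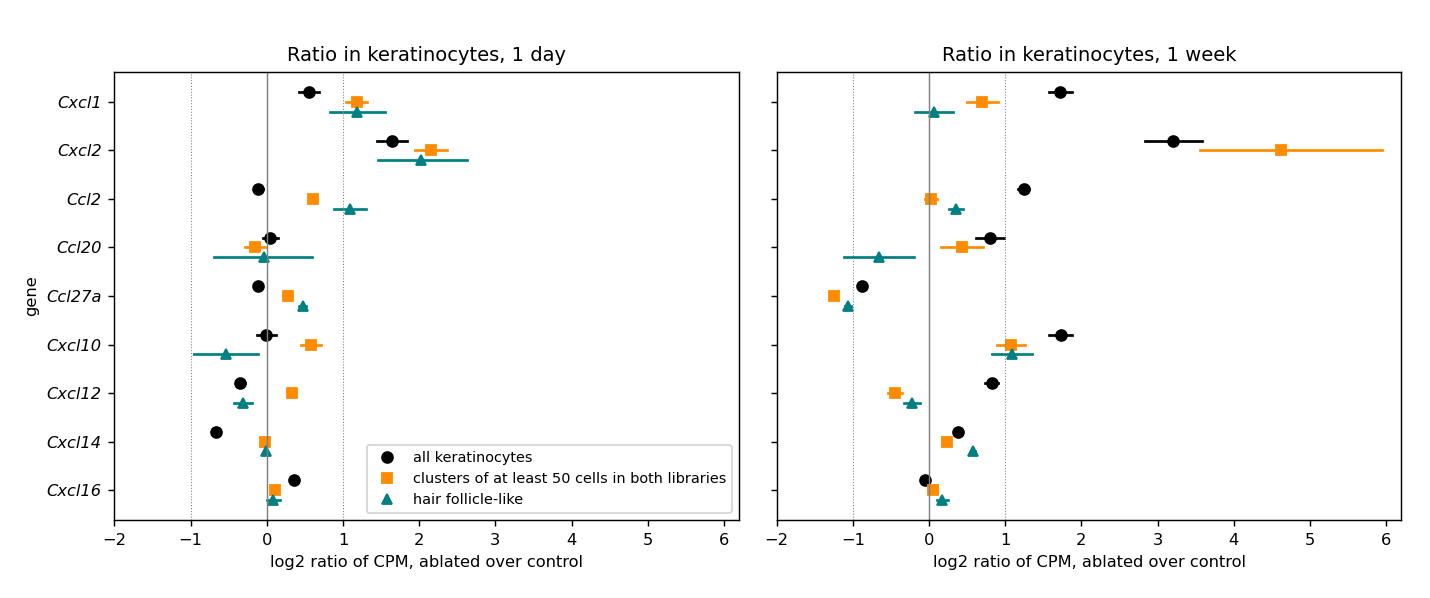
Log2 ratio of CPM, ablated over control (x axis), of 9 members at 1 day and 1 week, in all keratinocytes (circles), in clusters of at least 50 cells in both libraries (squares) and in hair follicle-like cells (triangles, where at least 50 UMIs were counted); bars are 95% intervals for counting error. Cxcl2 lies right of 0 in every set shown, and Ccl2 moves from 1.24 to 0.03 at 1 week when only shared clusters are used.

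Among the neutrophil-recruiting chemokines, Cxcl1 stood at 8.74 CPM in control and 12.8 CPM in ablated keratinocytes at 1 day, a log2 ratio of 0.55 (0.42 to 0.68), and at 10.6 and 34.9 CPM at 1 week, a ratio of 1.72 (1.57 to 1.87). Both ablated libraries were higher than their control. Within shared clusters the ratio was 1.18 at 1 day and 0.70 at 1 week, which ends the 2-fold difference at the later time. Cycling-like keratinocytes formed 1 cluster at 1 day, with 877 control and 977 ablated cells, and there Cxcl1 stood at 11.1 and 35.9 CPM, a log2 ratio of 1.69 (1.29 to 2.10). At 1 week the cycling-like cells stood at 13.8 and 49.5 CPM, a ratio of 1.84 (1.41 to 2.30). In hair follicle-like cells the level was 8.75 and 19.9 CPM at 1 day (ratio 1.19, 0.83 to 1.55) and 20.6 and 21.5 CPM at 1 week (0.07, -0.18 to 0.32). A single control cell held 133 of the 248 follicle UMIs there, and without the richest cell of each library the ratio was 0.94. Sebaceous-like cells had the highest Cxcl1 level of the named keratinocyte classes at 1 day in both libraries, 72.3 CPM in the control against 59.9 CPM in the ablated library.

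Cxcl2 is the neighbour of Cxcl1 and shares its receptor. Its keratinocyte level was 2.75 and 8.604 CPM in control and ablated libraries at 1 day, a log2 ratio of 1.64 (1.44 to 1.85), and 1.32 and 12.2 CPM at 1 week, a ratio of 3.20 (2.83 to 3.59). The 1-week ratio was 1.49 without doublet removal, 2.03 over all cells and 4.62 within shared clusters. The number of positive keratinocytes was 155 of 20528 and 304 of 17593 at 1 day, and 68 of 7438 and 116 of 3220 at 1 week. These are small shares: after thinning, 0.234% and 0.551% of keratinocytes held a Cxcl2 UMI at 1 day, beside 4 of 559 and 0 of 394 T cells, and 0.182% and 0.994% at 1 week. Hair follicle-like cells stood at 2.86 and 11.7 CPM at 1 day, where 1 ablated cell held 28 of 98 UMIs. Cycling-like cells stood at 3.96 and 13.8 CPM at 1 day, and then 0.828 and 29.5 CPM at 1 week. The last of these rests on 3 control UMIs and on 17 positive ablated cells, 1 of which held 56 of the 189 UMIs. Cxcl2 was found more often in cells that also held Cxcl1. Among keratinocytes of at least 3000 UMIs, 5.95% of Cxcl1-positive and 0.720% of Cxcl1-negative control cells held Cxcl2 at 1 day, against 11.8% and 1.59% of ablated cells. At 1 week the shares were 5.19% and 0.857% without and 15.6% and 2.30% with ablation. Cxcl1-positive cells were deeper than negative ones at 1 day, with medians of 5661 and 5113 UMIs in the control and 6151 and 4756 UMIs in the ablated library. At 1 week the medians were 7476 and 6746 UMIs in the control and 7238 and 7248 UMIs in the ablated library. The part of depth was not tested.

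Cxcl5 was at the limit of detection except in the 1-week ablated library. All cells together held 1 and 3 UMIs in the 1-day control and ablated libraries, and 1 and 101 UMIs at 1 week. Of those 101 UMIs, 16 lay in keratinocytes, where the control had 0 of 55911026 UMIs. Against the 3 counts that a count of 0 allows, the level was at least 11.4-fold higher. The low-UMI clusters held 84 of the 101 UMIs (83.2%). Of these, 59 were in cluster 15, which has 985 ablated and 0 control cells and is led by Igfl3, Stfa3, Klk10 and Sprr2a3, giving 37.5 CPM there, and 24 were in cluster 12, with 1103 ablated and 5 control cells, at 14.8 CPM. The same cluster 15 held Cxcl1 at 303 CPM and Ccl2 at 248 CPM. Its cells had a median of 1404 UMIs, and most of them had a profile close to the free RNA of their library. The 16 keratinocyte UMIs came from 5 cells, 14 of them from 3 hair follicle-like cells. Cxcl5 was at 0 in the T cell-like, Langerhans-like, endothelial-like and Krt8-led cells of that library.

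Ccl2, the monocyte chemokine, had a keratinocyte total that depended on which clusters were compared. It stood at 59.8 CPM in control and 55.4 CPM in ablated keratinocytes at 1 day (log2 ratio -0.11, -0.17 to -0.05) and at 54.4 and 129 CPM at 1 week (1.24, 1.17 to 1.31). Summed over shared clusters the ratios were 0.61 and 0.03, so that this sum lacks the 2-fold difference at 1 week and has the opposite sign at 1 day. The mix of the shared clusters differed between the libraries. In shared cluster 2 Ccl2 was lower with ablation at 1 day, as given below. The 1-week ratio was also under 2-fold by the mean of CPM per cell (0.87), with Krt8-led cells included (0.81) and over all cells (0.36). At 1 day, 5045 of the 6700 UMIs in the whole control library lay in cluster 2, an unclassed keratinocyte cluster led by Rassf9, Fst and Aldh3a1, whose level was 404 CPM in the control against 373 CPM in the ablated library. Hair follicle-like cells stood at 26.0 and 55.6 CPM at 1 day (1.10, 0.89 to 1.30). The 2 follicle clusters that carried most of this were cluster 4 (9.37 and 45.3 CPM, led by Krt24 and Cd34) and cluster 11 (73.0 and 130 CPM, led by Cst6 and Defb6). At 1 week hair follicle-like cells together stood at 125 and 159.9 CPM (0.36, 0.26 to 0.45). Cluster 4 of that time point, also follicle-like and led by genes that include Lgr5 and Lhx2, stood at 5.74 and 36.9 CPM, while follicle cluster 13 stood at 117 and 96.7 CPM. Both were below the class value in each library. The level of the remaining follicle cluster, 11 (led by Fst, Krt35 and Aldh3a1), was therefore above it.

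In the stroma, Ccl2 was lower in the 1-week ablated library in fibroblast-like cells, 2594 CPM in 336 control cells and 1533 CPM in 197 ablated cells (-0.76, -0.86 to -0.65), and higher in endothelial-like cells, 100 and 519 CPM in 115 and 86 cells (2.38, 1.91 to 2.86). Of the 217 endothelial UMIs in the ablated library, 94 came from 1 cell. Langerhans-like cells held 3 Ccl2 UMIs in 117 control cells and 170 in 80 ablated cells at 1 week, but only 4 of the ablated cells were positive. In the same cells the 9 fibroblast markers summed to 10.1 and 399.8 CPM (7 and 344 UMIs) and the 8 endothelial markers to 1.45 and 34.9 CPM. The part of stromal RNA in this value was not tested. At 1 day the Langerhans ratio of 1.55 rested on 1 ablated cell with 154 of 166 UMIs; without the richest cell of each library it was -1.48.

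Ccl20, the Ccr6 ligand, stood at 16.5 and 17.1 CPM in control and ablated keratinocytes at 1 day (0.05, -0.06 to 0.15) and at 9.53 and 16.6 CPM at 1 week (0.80, 0.61 to 0.98). The 1-day values differ by less than counting error. It was detected in few cells, 436 of 20528 and 446 of 17593 keratinocytes at 1 day, and 91 of 7438 and 141 of 3220 at 1 week. Its place in the epidermis differed between the libraries. At 1 day cluster 2 stood at 40.4 CPM in the control against 13.2 CPM in the ablated library, and suprabasal-like cluster 3 stood at 20.1 CPM in 3440 control cells and 91.7 CPM in 430 ablated cells. At 1 week, granular-like cells stood at 4.48 CPM in the control (6 UMIs in 220 cells) and 49.5 CPM in the ablated library (203 UMIs, 101 of 603 cells positive), a log2 ratio of 3.47 (2.32 to 4.93). In the same class Cxcl1 stood at 0.746 and 39.5 CPM and Cxcl2 at 0 and 22.2 CPM, all ablated UMIs of both being in cluster 21, and 236 of the 275 control Ccl2 UMIs lay in 1 cell. Control granular-like cells were mostly cluster 37 and ablated ones mostly cluster 21, and in cluster 29, which both filled, Ccl20 was 4.90 and 31.0 CPM. Cluster 21 had 452 ablated and 0 control cells. Of its cells 46.68% had a profile close to the free RNA of their library, just under the 50% limit for low-UMI clusters. The part of free RNA in its values was not tested. The 34 Ccl20 UMIs of T cell-like cells in the 1-week control came from 1 cell.

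Ccl27a, the skin-homing T cell chemokine, was among the most counted members and had opposite directions at the 2 times in hair follicle-like cells. That class held different clusters at the 2 times. Summed keratinocytes stood at 551.5 and 510 CPM at 1 day (-0.11, -0.13 to -0.09) and at 646 and 350 CPM at 1 week (-0.89, -0.92 to -0.85). Within shared clusters the ratios were 0.28 and -1.25. At 1 day every named keratinocyte class except the sebaceous-like was higher in the ablated library: basal-like cells stood at 880 and 1198 CPM, suprabasal-like at 240 and 305 CPM, hair follicle-like at 618 and 856 CPM and cycling-like at 424 and 609 CPM. T cell-like cells, in which the gene is read as background, also stood at 367 and 580 CPM, and fibroblast-like cells at 147 and 485 CPM. The part of free RNA in the keratinocyte values was not tested. At 1 week the hair follicle-like cells stood at 1036 and 495 CPM (-1.07, -1.11 to -1.02), cycling-like cells at 547 and 246 CPM (-1.15, -1.25 to -1.06), granular-like cells at 430 and 161 CPM and sebaceous-like cells at 199 and 59.9 CPM. The 93 control sebaceous-like cells were all in cluster 36, and 283 of the 348 ablated ones in cluster 25, which had no control cell. In cluster 36 alone Ccl27a stood at 199 and 54.6 CPM. T cell-like cells were at 36.2 and 39.6 CPM there.

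Cxcl10, the interferon-induced Cxcr3 ligand, stood at 11.5 and 11.4 CPM in keratinocytes at 1 day (-0.01, -0.13 to 0.12) and at 10.9 and 36.2 CPM at 1 week (1.73, 1.58 to 1.88). At 1 day 253 control and 292 ablated keratinocytes were positive, and at 1 week 147 of 7438 and 125 of 3220. Within shared clusters the ratios were 0.58 and 1.07. By the mean of CPM per cell the 1-week ratio was 0.78, which ends the 2-fold difference. Cycling-like cells had the highest level of any named keratinocyte class in 3 of the 4 libraries, 29.1 CPM in the 1-day control, 39.7 and 80.6 CPM at 1 week, and 32.3 CPM in the 1-day ablated library, where the basal-like value of 41.4 CPM came from 6 cells, 1 with 48 of the 61 UMIs. In the 1-week hair follicle-like cells the levels were 14.2 and 30.1 CPM (1.08, 0.82 to 1.35), but 1 ablated cell held 194 of the 405 UMIs, and without the richest cell of each library the ratio was 0.35. A cluster of 14 adipocyte-like cells in the 1-week ablated library held 197 Cxcl10 UMIs.

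Cxcl12 is the Cxcr4 ligand better known from fibroblasts and endothelium. Keratinocytes held most of its UMIs, but in the 1-day control they also held 107829194 of the 111367116 UMIs of all genes. At 1 week its level was higher in endothelial-like and fibroblast-like cells than in summed keratinocytes, as given below. Summed keratinocytes held Cxcl12 at 68.1 and 53.6 CPM at 1 day (-0.35, -0.40 to -0.29) and at 44.0 and 77.9 CPM at 1 week (0.83, 0.74 to 0.91). Both signs were the opposite in the sum over shared clusters, at 0.33 and -0.45, and over all cells the 1-week ratio was 0.24. The mix of the shared clusters differed between the libraries. In shared cluster 2 Cxcl12 was lower with ablation at 1 day, as given next. Cluster 2 held 3554 of the 7594 UMIs of the whole control library at 1 day, at 284 CPM against 229 CPM in the ablated library, and hair follicle-like cells stood at 138 and 111 CPM. At 1 week hair follicle-like cells, now most of the ablated keratinocytes, stood at 141 and 120 CPM (-0.22, -0.32 to -0.12). Endothelial-like cells stood at 285 and 117 CPM, and fibroblast-like cells at 162 and 128 CPM.

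Cxcl14, the constitutive epithelial chemokine, was the most counted member in the control libraries. Summed keratinocytes stood at 874 and 549 CPM at 1 day (-0.67, -0.69 to -0.65) and at 754 and 978.5 CPM at 1 week (0.38, 0.35 to 0.40). Over all cells the 1-week ratio was -0.12, and it was also below 0 with Krt8-led cells counted as keratinocytes. Summed over shared clusters the ratios were -0.03 and 0.24. Single shared clusters nevertheless differed at 1 day and in both directions, as given below for basal-like, cycling-like and suprabasal-like cells. Hair follicle-like cells had the highest level of the named keratinocyte classes and differed little at 1 day, at 2738 and 2709 CPM (-0.02, -0.04 to 0.01), with 4601 and 4697 CPM in cluster 4. Outside the follicle, 3 classes were lower in the 1-day ablated library: basal-like cells stood at 1413 and 966 CPM, cycling-like cells at 513 and 336 CPM, and suprabasal-like cells at 425 and 137 CPM, the last from different clusters. Granular-like cells (218 and 240 CPM) and sebaceous-like cells (138 and 175 CPM) were not lower. In cluster 3, the suprabasal-like cluster that both libraries filled, the ablated cells were higher, at 436.5 and 744 CPM. At 1 week hair follicle-like cells stood at 1116 and 1666 CPM (0.58, 0.55 to 0.61), and all 3 follicle clusters were higher in the ablated library, by 0.72, 0.32 and 0.49 on the log2 scale. Cycling-like cells were lower, at 524 and 215 CPM (-1.29, -1.39 to -1.19).

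Cxcl16, the membrane-bound Cxcr6 ligand, was counted in all classes. Keratinocytes stood at 276 and 353 CPM at 1 day (0.35, 0.33 to 0.38) and at 247 and 238 CPM at 1 week (-0.05, -0.10 to -0.01). The 1-day difference was larger in suprabasal-like cells, 257.5 and 431 CPM, whose ablated cells were clusters 5 and 8. Hair follicle-like cells stood at 207 and 219 CPM, and the shared-cluster ratio was 0.11. At 1 week the keratinocyte ratio turned above 0 over shared clusters, over all cells and with Krt8-led cells counted as keratinocytes (0.13). Langerhans-like cells, which are dendritic cells of the epidermis, had the highest level in each library, 745.5 and 749 CPM at 1 day, and then 591 and 616 CPM at 1 week. These values differed by less than counting error within each time point.

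**Figure D5:**
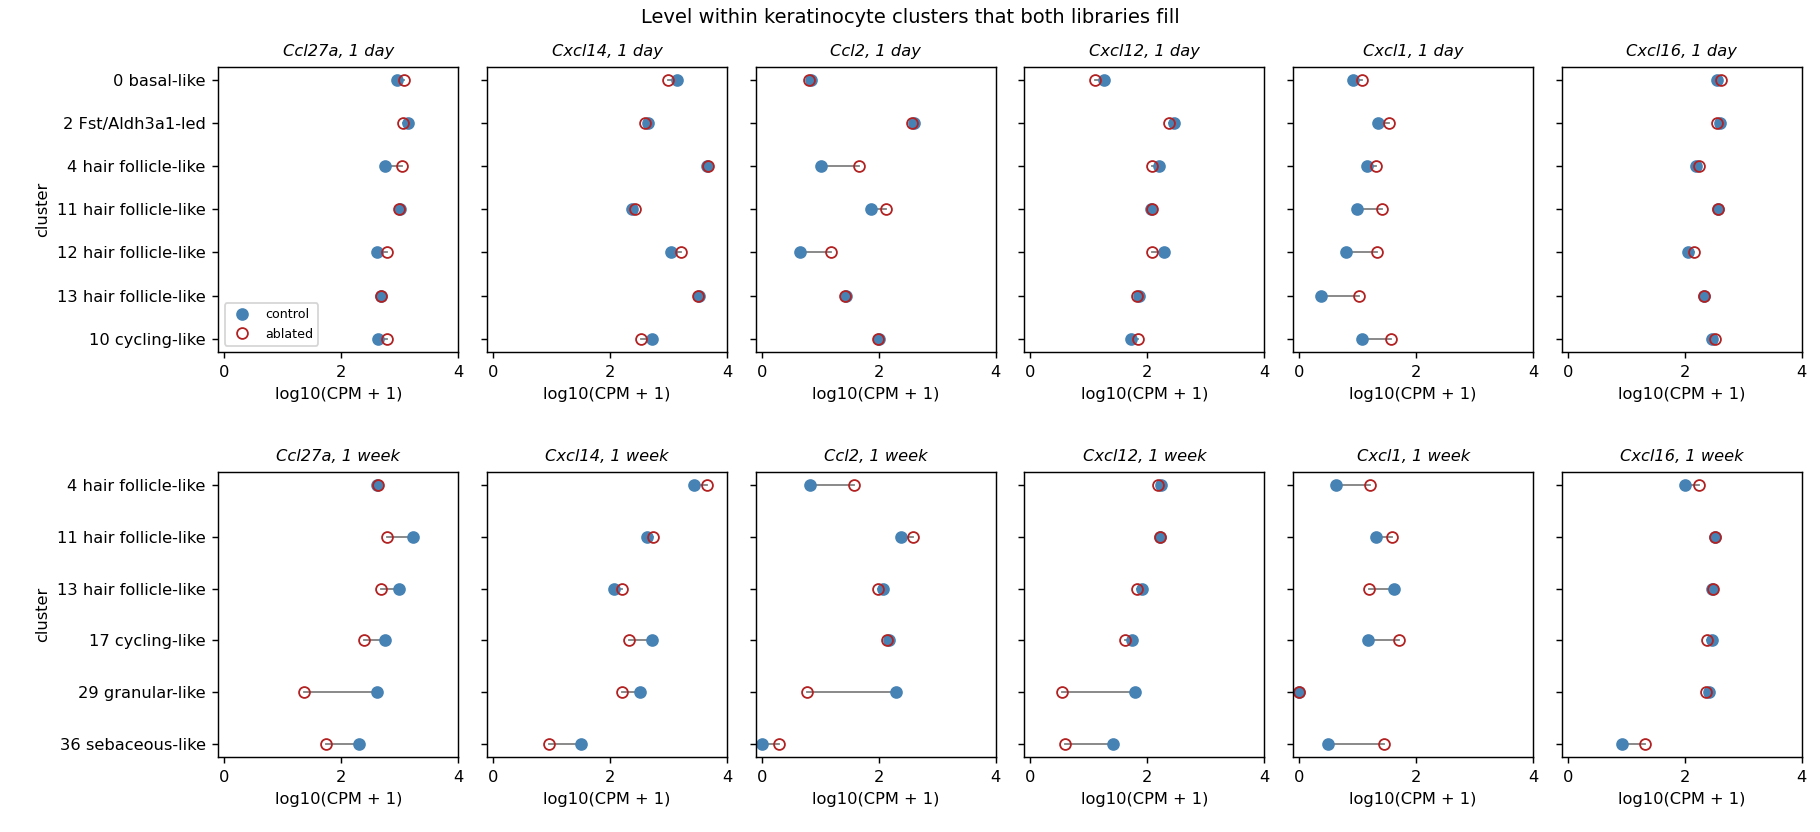
Level of 6 members as log10(CPM + 1) (x axes) in single keratinocyte clusters (y axis) filled by both libraries, at 1 day (top) and 1 week (bottom); filled circles are control and open circles ablated libraries. At 1 week Ccl27a is lower in the ablated library in 5 of the 6 clusters shown and level in follicle cluster 4, and at 1 day Cxcl1 is higher in the 7 clusters shown, which were chosen from 15; of the other 8, cluster 6 was lower, at 13.8 and 10.3 CPM.

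The Krt8-led cells, which have no counterpart in either control library, held Trp63 at 55.0 CPM at 1 day and 37.4 CPM at 1 week. At 1 day they held Cxcl16 at 545 CPM and Ccl27a at 1019 CPM, Cxcl14 at 244 CPM, Cxcl1 at 19.0 CPM, Ccl20 at 17.9 CPM and Cxcl2 at 12.4 CPM. At 1 week they held Cxcl16 at 342 CPM, Ccl27a at 278 CPM and Cxcl14 at 84.2 CPM. Their 1-week Cxcl2 level of 28.2 CPM came from 9 of 673 cells, with 194 of 325 UMIs in 1 cell, and 206 of their 219 Ccl2 UMIs also lay in 1 cell. Their Cxcl12 level was low at both times, 7.84 and 3.12 CPM.

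Outside the keratinocytes, Cxcl2 was high in Langerhans-like cells and Cxcl1 in stromal cells, while immune cells held 0.0418% to 4.55% of a library's Cxcl1 UMIs. Langerhans-like cells held Cxcl2 at 427 CPM in 385 control cells and 762 CPM in 467 ablated cells at 1 day (0.83, 0.67 to 1.00), with 23.9% and 28.1% of cells positive before thinning, and at 192.5 and 170 CPM at 1 week (-0.18, -0.53 to 0.17). Smooth muscle or pericyte-like cells were found at 1 week in 31 control and 40 ablated cells and held Cxcl1 at 5597 and 12160 CPM. Endothelial-like cells stood at 645 and 2509 CPM of Cxcl1 (1.96, 1.77 to 2.15), with 21 of 115 and 30 of 86 cells positive. Fibroblast-like cells differed little at 1 week, at 441 and 489 CPM (0.15, -0.06 to 0.35), and stood at 173 and 36.5 CPM at 1 day. Their Cxcl2 level was 91.4 and 224 CPM at 1 week, with 102 of 140 ablated UMIs in 1 cell, and the ratio of 1.29 became 0.26 without the richest cell of each library. A low-UMI cluster with macrophage markers (cluster 40, led by Lyz2, Wfdc17 and Pf4) had 20 control and 122 ablated cells at 1 week and held Cxcl2 at 744 and 763 CPM and Ccl2 at 700.3 and 660 CPM.

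Members past 2-fold in the other classes are read against the share of all genes there. In hair follicle-like cells at 1 day, 3 of 9 members were higher (Ccl2, Cxcl1 and Cxcl2), where 1.91% of genes were, and none lower, where 0.501% were. At 1 week 1 of 8 was higher (Cxcl10), where 3.06% were, and 1 lower (Ccl27a), where 1.80% were. Without the richest cell of each library Cxcl10 was under 2-fold there, as given above. In cycling-like cells, 2 of 9 were higher (Cxcl1 and Cxcl2) and 1 lower (Ccl20) at 1 day, where 3.53% and 1.89% of genes were. At 1 week 3 of 9 were higher (Cxcl1, Cxcl2 and Cxcl10) and 2 lower (Ccl27a and Cxcl14), where 5.63% and 5.01% were. Langerhans-like cells had 3 of 7 higher at 1 day (Ccl2, Cxcl1 and Cxcl12) and none lower, where 2.4% and 0.508% of genes were. The Ccl2 difference rested on 1 ablated cell, and its ratio turned negative without the richest cell of each library, as given above. For Cxcl12, 1 ablated cell held 37 of the 63 UMIs. At 1 week Langerhans-like cells had 2 of 6 higher (Ccl2 and Cxcl12) and 1 lower (Cxcl14), where 7.05% and 3.74% were. These calls stand beside the higher stromal markers in those cells given above. Their 15 keratinocyte markers summed to 22910 and 20540 CPM. Without the richest cell of each library the 1-week Cxcl14 ratio of -1.55 became -0.95.

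In granular-like cells 2 of 5 members were higher at 1 day (Ccl20 and Ccl27a) and none lower, where 6.21% and 2.43% of genes were. At 1 week 3 of 8 were higher (Ccl20, Cxcl1 and Cxcl2) and 2 lower (Ccl2 and Ccl27a), where 5.74% and 11.3% were. Sebaceous-like cells had 0 of 8 past 2-fold at 1 day, where 5.08% of genes were higher and 1.23% lower. At 1 week they had 2 of 4 higher (Cxcl1 and Cxcl16) and 1 lower (Ccl27a), where 9.21% and 3.82% were, with most ablated cells in a cluster that had no control cell. Fibroblast-like cells had 2 of 6 higher at 1 day (Ccl27a and Cxcl16) and 1 lower (Cxcl1), where 9.92% and 11.6% were. Both higher genes are read as background in stromal cells of the 1-day ablated library, as given above. The median depth of 1-day fibroblast-like cells also differed, at 1134 UMIs without and 2938 UMIs with ablation. At 1 week 1 of 8 was higher in fibroblast-like cells (Cxcl2) and none lower, where 2.41% and 2.52% were. That Cxcl2 ratio was under 2-fold without the richest cell of each library, as given above. T cell-like cells had 0 of 5 past 2-fold at 1 day, where 9.02% of genes were higher and 11.7% lower, and at 1 week no member reached 50 UMIs there, while 1.99% of genes were higher and 3.7% lower. Over all cells, 1 of 9 members was higher at 1 day (Cxcl2) and none lower, where 4.66% and 3.31% were. At 1 week 4 of 10 were higher (Cxcl1, Cxcl2, Cxcl5 and Cxcl10) and 1 lower (Ccl27a), where 8.9% and 4.39% were.

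Genes around the chemokines were counted in the same way in keratinocytes. The counts for each list stand beside 6.31% of all genes higher and 2.26% lower at 1 day, and 11.6% and 4.78% at 1 week. Of 17 measured upstream cytokines and receptors, 5 were at least 2-fold higher and none lower at 1 day, with a median log2 ratio of 0.43. They include Il1a, an epithelial alarm cytokine (2.23 and 14.7 CPM, 2.71), its antagonist Il1rn (88.8 and 288 CPM, 1.70) and Tnf (3.49 and 8.14 CPM, 1.22). At 1 week 3 of 18 were higher and 1 lower, Il1a among the higher (2.40 and 9.80 CPM, 2.03). None of the 13 NF-κB genes was 2-fold higher or lower at 1 day, and 1 was lower at 1 week, the inhibitor Tnfaip3 (236 and 106 CPM, -1.15). Of 10 interferon-side genes, 1 was higher and 1 lower at 1 day. At 1 week 4 were higher (11.6% of all genes were) and none lower, namely Ifit1, Irf7, Isg15 and Gbp3, with Isg15 at 11.5 and 25.9 CPM (1.17). Of 6 proteases and peptidases that process chemokines, 1 was higher at 1 day (Dpp4, 2.14 and 8.23 CPM, 1.94) and 1 lower (Mmp9, 0.881 and 0.344 CPM, -1.36). At 1 week 2 of 5 were higher, the cathepsins Ctsl (144 and 647 CPM, 2.16) and Ctsb (199 and 427 CPM, 1.10), and none lower. Of 16 dissociation and stress genes, 2 were 2-fold higher at 1 day (Fos, 308 and 634 CPM, and Dusp1, 386 and 795 CPM, both 1.04) and 1 at 1 week (Socs3, 1.45). Of the 16, 15 had a ratio above 0 at each time, with a median of 0.56 at 1 day and 0.52 at 1 week, against 0.01 and 0.18 for all genes. The part of digestion stress in the chemokine values was not tested.

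On the receiving side, 3 of 11 chemokine receptors were higher and 2 lower in keratinocytes at 1 day, and 0 of 8 higher and 4 lower at 1 week, where 6.31% and 2.26%, then 11.6% and 4.78% of all genes were. Cxcr2, the receptor of Cxcl1, Cxcl2 and Cxcl5, stood at 0.844 and 6.52 CPM at 1 day (2.95, 2.62 to 3.29). At 1 week it held 5 and 29 UMIs, too few for the count above, at 0.0894 and 1.11 CPM (3.63, 2.25 to 5.36). The scavenger receptor Ackr2 was lower at both times (2.18 and 0.304 CPM, -2.84, and 2.22 and 0.497 CPM, -2.16), as was Ackr4, a scavenger of other ligands, at 1 day (11.1 and 4.78 CPM, -1.21). Ccr7, which guides dendritic cells out of the skin, stood in Langerhans-like cells at 34.3 and 147 CPM at 1 day, and then 7.24 and 619.5 CPM at 1 week. T cell-like cells held Cxcr6 at 405 and 113 CPM at 1 day, and then 419 and 452 CPM at 1 week. In the same 1-day T cells Xcl1 stood at 890 and 179.5 CPM, Ccl5 at 166 and 71.8 CPM and Cxcr4 at 26.1 and 9.48 CPM, beside the higher depth and Ccl27a share of the ablated T cells given above. The part of mixed profiles was not tested. The other chemokines held 3 higher and 1 lower of 10 at 1 day and 5 higher and 2 lower of 14 at 1 week, among them Cxcl9, like Cxcl10 a Cxcr3 ligand (0.823 and 12.4 CPM, 3.91). Markers of other cells were also counted in keratinocytes, with differences in both directions. The summed level of the 8 Langerhans markers, which include the epithelial gene Epcam, was 961 and 1966 CPM at 1 day, and then 916 and 1845 CPM at 1 week. The 10 T cell markers went the other way, at 66.5 and 45.1 CPM at 1 day, and then 90.1 and 40.8 CPM at 1 week. The 10 macrophage or dendritic markers were at 6.13 and 8.91 CPM, and then 8.59 and 11.02 CPM. The 6 neutrophil markers summed to 4.11 and 37.6 CPM at 1 day, and to 2.52 and 71.1 CPM at 1 week, with Retnlg, Ly6g and Mmp8 at 0 in the keratinocytes of all 4 libraries. The markers detected there were S100a8 and S100a9, and Csf3r in the 1-day ablated library. S100a8 and S100a9 are also among the leading genes of keratinocyte cluster 8 at 1 day (28 control and 2420 ablated cells) and cluster 60 at 1 week (0 and 76 cells). In the low-UMI clusters of the 1-week ablated library all 6 were detected and summed to 289 CPM (5182 UMIs), against 2.35 CPM (30 UMIs) and 3 of 6 detected in the control. The fibroblast markers summed to 73.5 and 71.1 CPM at 1 day and to 131 and 174 CPM at 1 week. The part of other cells in the chemokine values was not tested.

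Across the class and library profiles of a time point, the gene most like Ccl2 was its neighbour Ccl7, with a Pearson r of 0.93 over 23 profiles at 1 day and 0.94 over 20 at 1 week. Ccl27a was most like Itga6 at 1 day (0.93) and Krt15 at 1 week (0.92), and Cxcl14 was most like Krt15 at both (0.89 and 0.90). Cxcl2 was most like Ly75 at 1 day (0.94) and Pgf at 1 week (0.92). These values describe profiles that share libraries and depth.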

How the data were processed

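Single-cell RNA sequencing was read from 4 deposited matrices of UMI counts, raw whole-number counts per gene and barcode as the authors deposited them, with 1 library in each group. Cell Ranger 5.0.1, Seurat and the mm10 genome are named in the submitters' processing notes, without their role. Cells were required to have 500 UMIs and 300 genes or more, with a mitochondrial share of no more than 15%. Scrublet's automatic threshold marked 32.35% and 99.77% of barcodes at 1 day and 0.04023% and 0% at 1 week, so the highest-scoring barcodes were removed at 0.8% per 1000 barcodes, which took 14.73% to 26.84% of a library. Each time point was clustered by itself (scanpy 1.11.5, 2000 variable genes without the chemokines and their lists, 30 components, 15 neighbours, Leiden resolution 1). Clusters were named from marker lists. The limits for low-UMI and unclassed clusters were set after the data were seen, and the low-UMI limit was applied at 1 week only.

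UMIs were summed per class and library and scaled to CPM. Ratios are ablated over control with exact 95% intervals (Poisson for levels, Clopper-Pearson for shares, conditional for ratios), for counting error only. Genes with at least 50 UMIs over both libraries were compared at a fold of 2. A count of 0 was given a floor of 3 counts. For shares, each cell was thinned to 1000 UMIs and shallower cells were left out. The counting and ratio steps were tested on simulated data. The 10 members were all reported, and of each pathway list up to 5 genes past 2-fold with the largest ratios could be named. The members and lists were chosen with earlier results of these data known. Alternatives covered scaling (edgeR 4.0.16, TMM), cell filters, doublets, clustering, classes and thinning. With 1 library in each group no test across samples could be made. Antibody hashtag counts in the 1-day matrices were kept out of all gene totals. A cell was assigned to a hashtag whose count, over its library median, was at least 2 times the next.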

Additional observations from a re-analysis of the deposited data

Results flagged for a closer look

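Several members had a log2 ratio of one sign at 1 day and of the other sign at 1 week, with counting intervals on opposite sides of 0. The difference between the time points was not tested, and the 3′ and 5′ kits differ with the time points, so that kit and time cannot be told apart. A class of the same name also held different clusters at the 2 times. Cluster 2 at 1 day, whose leading genes include Fst, Aldh3a1 and Vsnl1, was unclassed. Cluster 11 at 1 week, led by Fst, Krt35, Aldh3a1 and other genes that include Vsnl1, was hair follicle-like. In keratinocytes the members with opposite signs were Ccl2 (-0.11 and 1.24), Cxcl12 (-0.35 and 0.83), Cxcl14 (-0.67 and 0.38) and Cxcl16 (0.35 and -0.054). In hair follicle-like cells they were Ccl27a (0.47 and -1.07) and Cxcl10 (-0.53 and 1.08). In cycling-like cells they were Ccl20 (-1.04 and 0.45), Ccl27a (0.52 and -1.15), Cxcl12 (0.44 and -0.37) and Cxcl16 (0.21 and -0.28). In granular-like cells they were Ccl27a (1.14 and -1.42) and Cxcl12 (0.74 and -0.79). Outside keratinocytes, Ccl27a had 0.42 and -0.73 in Langerhans-like cells and 1.73 and -0.72 in fibroblast-like cells, and Ccl2 had 0.91 and -0.76 in fibroblast-like cells. Ccl27a in immune and stromal cells of the 1-day ablated library is read as background. Several keratinocyte signs depended on the cells used. Summed over shared clusters, Ccl2 was at 0.61 and 0.03, Cxcl16 was above 0 at both times, and Cxcl12 had both signs turned (0.33 and -0.45). Over all cells Cxcl14 was at -0.12 at 1 week.

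The 1-day matrices also hold antibody hashtag counts, used only to split the 1-day keratinocytes, 16386704 UMIs in the control and 12293061 UMIs in the ablated library. The labels do not say what the hashtags mark.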

How the results depend on the processing

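No paired analysis was possible because each group is 1 library and the labels give no replicate numbers, and for the same reason no library could be left out. Across 15 alternatives the keratinocyte log2 ratio of Cxcl2 stayed above 0 at both times, from 1.31 to 2.16 at 1 day and from 1.49 to 4.62 at 1 week, as did that of Cxcl1, from 0.46 to 1.18 and from 0.70 to 2.38. Using only clusters filled by both libraries, chosen after seeing the data, the 1-day ratios became 0.61 for Ccl2, 0.28 for Ccl27a and 0.33 for Cxcl12, and the 1-week ratios -0.45 for Cxcl12 and 0.047 for Cxcl16. Members at least 2-fold higher then numbered 2 at each time (7.78% and 4.67% of all genes were), and 1 was lower at 1 week (3.39%). With all cells in place of keratinocytes, Ccl27a was at 0.16 at 1 day, and Cxcl14 at -0.12 and Cxcl16 at 0.075 at 1 week, with 1 member lower (4.39% of genes). With Krt8-led clusters counted as keratinocytes these 3 values were 0.15, -0.10 and 0.13. TMM scaling gave 1 lower member at 1 week (6.34% of genes) and an interferon list median of -0.010 at 1 day. The mean of CPM per cell gave 2 higher members at 1 week (10.3% of genes). Requiring 2 UMIs, the thinned share differed by -0.026 percentage points for Ccl20 and -0.051 for Cxcl10 at 1 day, and by 1.62 for Cxcl14 at 1 week. Without the filter on low counts, 3425 genes were higher and 2346 lower at 1 day, and 4073 and 3150 at 1 week. At a fold of 1.5 they numbered 1696 and 913, then 3093 and 1232, against 844 and 303, then 1513 and 625, as reported. The cause of these shifts was not tested. For the sparse members few positive cells limit the precision beyond the counting intervals.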

Other observations

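In the 1-day libraries 60.93% of control and 34.51% of ablated keratinocytes could be assigned to 1 of 3 antibody hashtags. Over the keratinocytes of each hashtag, the Cxcl2 level ranged from 1.73 to 3.44 CPM in the control and from 3.74 to 12.7 CPM in the ablated library. Cxcl14 lay between 577 and 711 CPM in control hashtags and between 283 and 353.5 CPM in ablated ones. These values are all below the 873.9 CPM of all control and the 549.2 CPM of all ablated keratinocytes. The cells assigned to a hashtag therefore differed from the unassigned ones in Cxcl14, and the missing overlap describes the assigned cells only. Ccl2 lay between 37.0 and 121 CPM in control hashtags, a range that holds both ablated extremes of 51.3 and 110 CPM. Cxcl2 and Cxcl14 were the 2 of 9 members without overlap, against 36.4% of all genes. The nearest Cxcl2 values, 3.44 CPM in control hashtag 1 and 3.74 CPM in ablated hashtag 3, had overlapping counting intervals (2.799 to 4.192 and 2.575 to 5.254). Summed over the clusters filled by both libraries, the keratinocyte log2 ratio of Cxcl14 was -0.028. The labels do not name the hashtags as replicates, and no test was made over them.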
